A study of Mus musculus with 20 samples.

Results

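Globin mRNA was followed in 2 sorted bone marrow populations of mice that lacked Bcor, Dnmt3a or both. A list of 7 genes was taken, of which 6 globin genes were read from the LSK and MEP tables by their gene symbols: the adult alpha genes Hba-a1 and Hba-a2, the adult beta genes Hbb-b1 and Hbb-b2, and the embryonic beta-like genes Hbb-bh1 and Hbb-y. The other gene of the list is not analysed here. Each table held 24315 genes, and in each of them 3 of the 6 globins (Hba-a1, Hbb-b1 and Hbb-b2) passed the filter of a mean of at least 1 FPKM (a fragment count divided by transcript length and by library size). LSK cells are Lin-/Sca1+/Kit+ stem and multipotent cells, and MEP are Lin-/Sca1-/Kit+ megakaryocyte-erythroid progenitors. Each population was sorted from the same C57BL/6 mice, with 3 WT, 3 Dnmt3a-/-, 2 Bcor-/- and 2 Bcor-/-Dnmt3a-/- replicates, for 20 libraries of polyA RNA. A replicate is 1 mouse, except Bcor-/- replicate 1, whose label names 2 mice; it is counted below as 1 mouse. In the study's model the floxed alleles were deleted in the adult by the interferon-inducible Mx1-Cre after pIpC, the deletion of Dnmt3a in the single knockout was partial, and the double knockout mice of the RNA comparison were leukemic. The labels give no age for the mice.

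Hemoglobin is a tetramer of alpha-like and beta-like chains, each holding a heme. In the mouse the alpha-like genes lie on chromosome 11 and the beta-like genes on chromosome 7, and each cluster is driven by distant enhancers bound by Gata1, Tal1, Klf1 and Nfe2. The embryonic genes serve the first red cells and are silenced afterwards, so adult erythroblasts make Hba-a1, Hba-a2 and the adult beta genes. Free chains of either kind are unstable, and cells of the erythroid lineage keep the chain outputs near balance.

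The stretches of 250 bases upstream of the start sites are shown for adult alpha and beta genes and for 1 embryonic gene that stayed near 0 (RefSeq, GRCm38.p6, 5' to 3' on the gene's strand). Of the members, Hba-a1, Hba-a2 and Hbb-y had an entry, and Hbb-b1, Hbb-b2 and Hbb-bh1 had none. The adult beta pair of that reference is named Hbb-bs and Hbb-bt and is shown under these names. Capitals mark every match, on either strand, to CACCC (within the element bound by Klf1), to CCAAT (the CCAAT box), to GATAA (holding the core bound by GATA factors) and to ATATAA (a form of the TATA box).
Hba-a1, chr11:32283422-32283671, + strand: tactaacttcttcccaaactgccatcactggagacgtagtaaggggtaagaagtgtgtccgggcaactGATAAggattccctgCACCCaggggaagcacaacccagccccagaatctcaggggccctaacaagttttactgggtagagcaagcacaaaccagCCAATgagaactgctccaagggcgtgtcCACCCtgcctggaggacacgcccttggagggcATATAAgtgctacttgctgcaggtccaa
Hbb-bs, chr7:103827929-103828178, - strand: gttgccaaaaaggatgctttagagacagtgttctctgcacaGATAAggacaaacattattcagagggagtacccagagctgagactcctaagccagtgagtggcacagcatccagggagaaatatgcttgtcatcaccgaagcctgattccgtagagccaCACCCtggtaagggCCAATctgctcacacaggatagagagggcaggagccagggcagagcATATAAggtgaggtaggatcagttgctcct
Hbb-bt, chr7:103813924-103814173, - strand: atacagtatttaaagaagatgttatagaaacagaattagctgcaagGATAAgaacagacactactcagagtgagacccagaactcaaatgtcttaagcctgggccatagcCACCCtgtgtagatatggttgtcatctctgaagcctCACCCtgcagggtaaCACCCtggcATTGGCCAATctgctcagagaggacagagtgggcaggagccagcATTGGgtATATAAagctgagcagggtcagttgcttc
Hbb-y, chr7:103853208-103853457, - strand: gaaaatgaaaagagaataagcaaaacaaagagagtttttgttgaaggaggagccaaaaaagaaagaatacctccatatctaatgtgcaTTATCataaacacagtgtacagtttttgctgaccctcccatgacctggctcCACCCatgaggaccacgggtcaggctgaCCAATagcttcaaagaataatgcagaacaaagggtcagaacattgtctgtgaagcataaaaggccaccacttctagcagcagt

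All 4 motifs were present in the upstream stretches of Hba-a1, Hbb-bs and Hbb-bt. In each of these 3 the ATATAA match began between 30 and 28 bases before the start site. The Hbb-y stretch held 1 match to each of the first 3 motifs, that to GATAA on the other strand, and none to ATATAA. The stretch of Hba-x, an embryonic alpha-like gene that is no member, did hold a match to ATATAA. The stretches shown thus set no contrast between adult and embryonic genes. Each motif is common: CACCC occurred in 52% of 32851 promoter stretches of this length, CCAAT in 33.8%, GATAA in 22.6% and ATATAA in 9.1%, so a match describes the sequence and marks no site. The full reference windows of Hba-a1 and Hba-a2, which run 50 bases past the start site and so are longer than the stretch shown, were identical over 297 of 297 bases once shifted by 3.

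The transcripts of the paralogs are nearly as alike, and this decides which rows of the tables can be read singly. Of the 505 stretches of 50 bases in the Hba-a2 transcript, 86.9% also lie in the Hba-a1 transcript. Of those of Hbb-bs, 65.8% also lie in Hbb-bt. None of the 50-base stretches of Hbb-y or Hbb-bh1 was shared with another of the globins compared. Reads from the adult pairs can therefore be divided by the authors' software, while the embryonic genes are free of that limit at this length.

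Hba-a1 encodes the adult alpha chain. In LSK its level was 8.83, 24.4 and 34.6 FPKM in the 3 WT libraries and 32.7, 13.3 and 12.4 FPKM in the Dnmt3a-/- libraries. The Bcor-/- libraries had 33.1 and 43.4 FPKM, and the Bcor-/-Dnmt3a-/- libraries 1810 and 6837 FPKM. The double knockout libraries stood above all 8 others, while the single knockouts overlapped WT.

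Hbb-b1 encodes a major adult beta chain. Its LSK level was 14.1, 34.8 and 57.8 FPKM for WT, 45.2, 20.1 and 26.3 FPKM for Dnmt3a-/-, 62.5 and 45.5 FPKM for Bcor-/-, and 2825 and 12338 FPKM for the double knockout. Hbb-b2, the other adult beta row, had 9.999, 16.98 and 17.01 FPKM for WT, 22.5, 17.3 and 14.8 FPKM for Dnmt3a-/-, 27.6 and 24.4 FPKM for Bcor-/-, and 970 and 3371 FPKM for the double knockout. For both genes the double knockout again lay far above every other library. The Bcor-/- libraries lay above all WT libraries for Hbb-b2 and overlapped WT for Hbb-b1.

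The comparison of Bcor-/-Dnmt3a-/- with WT asked whether loss of both genes changed the LSK transcriptome. Following the study's own rule, calls required an unadjusted p below 0.05 in limma together with a change of more than 1.5-fold. Values entered as log2(FPKM + 1), a scale that understates the change of low genes. All 3 tested globins rose, where 15.0% of the 11952 tested genes were called higher and 13.3% lower. The log2 fold change was 7.41 ± 0.67 (SE, adjusted p = 0.00011) for Hba-a1, 7.54 ± 0.68 (adjusted p = 0.00011) for Hbb-b1 and 6.89 ± 0.45 (adjusted p = 3.5e-05) for Hbb-b2. These correspond to 170-, 186- and 118-fold. Against Bcor-/- the same globins were called higher (30.6% of genes called in either direction) with log2 fold changes of 6.50, 6.76 and 6.07 (adjusted p = 0.00051, 0.00045 and 0.00014). Against Dnmt3a-/- they were called higher as well (29.8% of genes called), with log2 fold changes of 7.56, 7.63 and 6.58 (adjusted p at most 0.0001). These comparisons share the 2 double knockout libraries.

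Neither single knockout changed a globin past the thresholds in LSK. In Bcor-/- the log2 fold change against WT was 0.91 ± 0.67 for Hba-a1, 0.78 ± 0.68 for Hbb-b1 and 0.82 ± 0.45 for Hbb-b2 (adjusted p = 0.45, 0.54 and 0.30), and 0 of 3 were called where 13.2% of all genes were. Hbb-b2 in Bcor-/- was called higher when only Bcor-/- and WT libraries were fitted and when either double knockout library was left out. In Dnmt3a-/- the log2 fold changes were -0.16 ± 0.60, -0.09 ± 0.61 and 0.31 ± 0.40, and 0 of 3 were called where 0.443% of all genes were.

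**Figure D1:**
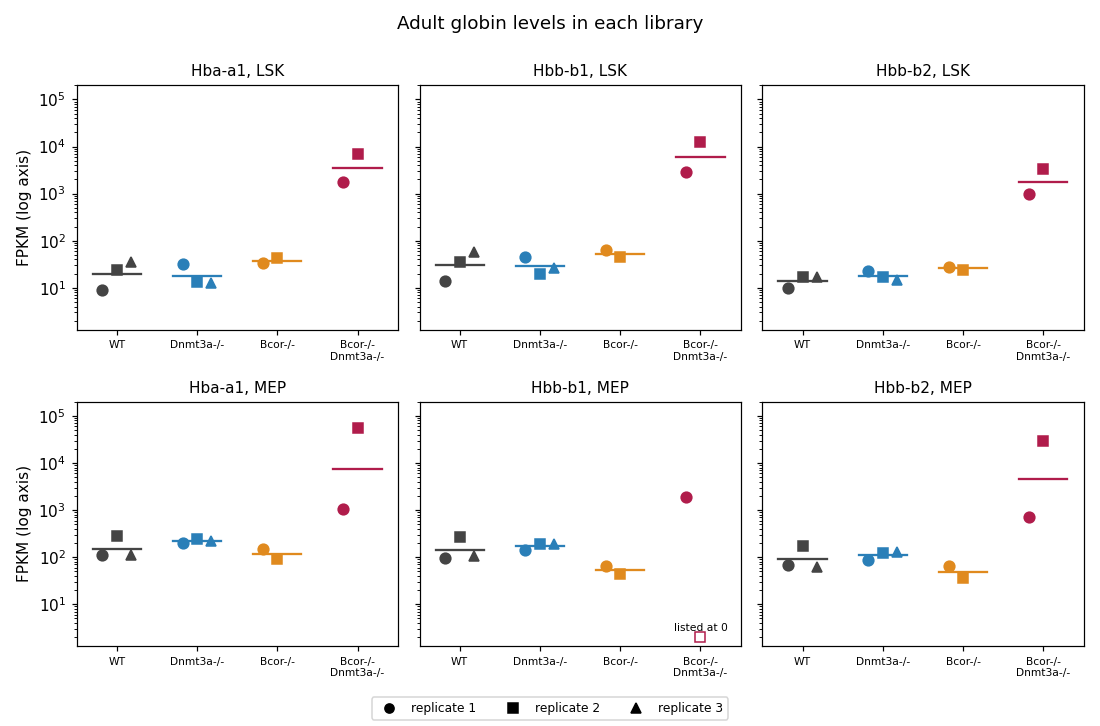
FPKM of Hba-a1, Hbb-b1 and Hbb-b2 on a log axis in each LSK (upper row) and MEP (lower row) library by genotype; marker shapes are replicates, horizontal lines are geometric means, and the open square marks the value listed at 0. The LSK double knockout libraries lie between 970 and 12338 FPKM and all the others at or below 62.5 FPKM.

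In MEP, where globin transcription starts during normal erythropoiesis, the adult genes were higher than in LSK in every WT and Dnmt3a-/- mouse. The WT libraries had 110, 280 and 110 FPKM of Hba-a1, the Dnmt3a-/- libraries 198, 246 and 216 FPKM, and the Bcor-/- libraries 147 and 90.7 FPKM. The Bcor-/-Dnmt3a-/- libraries had 1055 and 55204 FPKM. Both double knockout libraries were above the 8 others, but they differed from each other by 52.3-fold.

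Hbb-b2 followed the same order, with 69.1, 177 and 62.4 FPKM for WT, 86.2, 125 and 131 FPKM for Dnmt3a-/-, 65.5 and 36.1 FPKM for Bcor-/- and 705 and 30050 FPKM for the double knockout. For Hbb-b1 WT gave 97.4, 264 and 108 FPKM, Dnmt3a-/- gave 142, 188 and 187 FPKM and Bcor-/- gave 66.3 and 43.3 FPKM. Its double knockout values were 1854 FPKM in replicate 1 and a listed 0 in replicate 2, the library with the highest Hba-a1 and Hbb-b2 of all. That 0 cannot be read as absence, because paralogs share most of their sequence and the same library listed Hbb-b2 at 30050 FPKM.

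Of the 3 tested globins, 2 rose in Bcor-/-Dnmt3a-/- MEP against WT, where 18.5% of the 10933 tested genes were called higher and 12.4% lower. The log2 fold change was 5.66 ± 1.32 for Hba-a1 (adjusted p = 0.013) and 5.64 ± 1.27 for Hbb-b2 (adjusted p = 0.011). For Hbb-b1 the value was -1.72 ± 2.43 (adjusted p = 0.61); its direction came from the listed 0, since the value was 3.71 with that entry set to missing and 5.23 for Hbb-b1 and Hbb-b2 summed, both called higher. Replicate 2 set the size of the other changes too: without it the log2 fold changes were 2.80 for Hba-a1 and 2.93 for Hbb-b2, and without replicate 1 they were 8.51 and 8.34. These fits leave 1 double knockout library, whose spread is assumed to be that of the other genotypes. Against Bcor-/- (27.9% of genes called) Hba-a1 and Hbb-b2 were called higher by 6.04 and 6.54, and against Dnmt3a-/- (34.7% called) by 5.12 and 5.35. In these comparisons Hbb-b1 was not called, with values of -0.34 and -1.99 that again held the listed 0. The fit of Bcor-/-Dnmt3a-/- and Bcor-/- libraries alone left Hba-a1 just short of the threshold.

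In Bcor-/- MEP, 0 of 3 globins were called against WT, where 2.76% of all genes were. The log2 fold changes were -0.38 ± 1.32 for Hba-a1, -1.38 ± 2.43 for Hbb-b1 and -0.90 ± 1.27 for Hbb-b2. Hbb-b1 was nevertheless lower in both Bcor-/- libraries than in any WT library. The shared estimate of its spread included the listed 0 of another genotype; with that entry set to missing, the same -1.38 was called lower, as it was in the fit of Bcor-/- and WT alone and without either double knockout library. In Dnmt3a-/- MEP the values were 0.54 ± 1.18, 0.28 ± 2.17 and 0.29 ± 1.14, and 0 of 3 were called where 0.412% of all genes were. The shared spread of Hba-a1 and Hbb-b2 also included the double knockout libraries, which differed from each other by 52.3-fold and 42.6-fold. Small changes of these genes in either single knockout are therefore not resolved by this fit.

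By group mean the level of Hba-a1 rose in the order Dnmt3a-/- LSK (19.4 ± 11.5 FPKM, SD, n = 3), WT LSK (22.6 ± 13, n = 3), Bcor-/- LSK (38.3 ± 7.32, n = 2), Bcor-/- MEP (119 ± 39.5, n = 2), WT MEP (167 ± 98, n = 3), Dnmt3a-/- MEP (220 ± 24.3, n = 3), Bcor-/-Dnmt3a-/- LSK (4323 ± 3554, n = 2) and Bcor-/-Dnmt3a-/- MEP (28129 ± 38289, n = 2). Neighbours in this order overlapped, with the exception of the step from Bcor-/- LSK to Bcor-/- MEP and that from Dnmt3a-/- MEP to Bcor-/-Dnmt3a-/- LSK. So LSK cells of the double knockout had a higher listed Hba-a1 FPKM than MEP of any other genotype. The values of the 2 populations may have been scaled separately, and no LSK level was tested against a MEP level.

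The share of all summed FPKM in the 6 globins shows the same scale. It was between 0.00774% and 0.0267% in the 8 LSK libraries of the other genotypes, and 1.23% and 4.31% in the double knockout. In MEP it was between 0.0388% and 0.151% in the other genotypes and 0.827% and 13.6% in the double knockout. Hbb-b1 was the most abundant gene of all in LSK of double knockout replicate 2, and Hba-a1 in its MEP. In bulk RNA, more globin-rich cells and more globin mRNA per cell cannot be told apart.

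Since each mouse gave both populations, the step from one population to the other could be read within each mouse. MEP held 12.4, 11.4 and 3.19 times the LSK level of Hba-a1 in the WT mice and 6.07, 18.5 and 17.4 times in the Dnmt3a-/- mice. The ratio was 4.43 and 2.09 in the Bcor-/- mice. It was 0.583 and 8.07 in the Bcor-/-Dnmt3a-/- mice, so that in replicate 1 the listed MEP value was the lower. Hbb-b2 gave ratios of 6.91, 10.4 and 3.67 for WT, 3.83, 7.23 and 8.81 for Dnmt3a-/-, 2.37 and 1.48 for Bcor-/-, and 0.727 and 8.91 for the double knockout. For Hbb-b1 the ratios of the Bcor-/- mice were near 1, at 1.06 and 0.951, against 6.90, 7.58 and 1.87 in WT. If the populations were scaled separately, all these ratios would shift by a common factor, so those near 1 do not settle which population was higher. Comparing the ratios between genotypes does not depend on that factor.

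The test of whether a genotype changed LSK and MEP differently used the LSK minus MEP difference of each mouse. For Bcor-/-Dnmt3a-/- against WT it called Hbb-b1 alone (28.0% of 10773 genes called), with a difference of 9.26 ± 2.78 on the log2 scale (adjusted p = 0.045). That value held the listed 0. With it set to missing the difference was 2.77, from 1 double knockout mouse whose spread is taken from the other genotypes. Hba-a1 and Hbb-b2 gave 1.75 ± 1.04 (adjusted p = 0.25) and 1.25 ± 0.89 (adjusted p = 0.34), and their direction rests on the double knockout mice: they were 3.65 and 3.06 without mouse replicate 2, and -0.15 and -0.56 without replicate 1, each fit with 1 double knockout mouse left. In Bcor-/- none of the 3 was called (10.8% of genes called), with 1.29 ± 1.04, 2.15 ± 2.78 and 1.72 ± 0.89 (adjusted p = 0.55, 0.73 and 0.34). In the fit of Bcor-/- and WT mice alone, Hbb-b1 and Hbb-b2 were called. In Dnmt3a-/- none was called (0.873% of genes called).

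**Figure D2:**
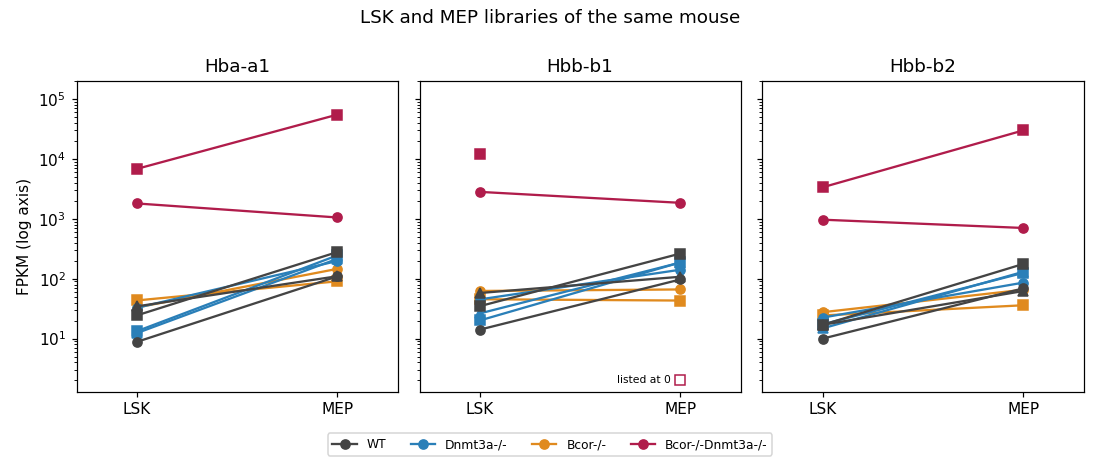
FPKM on a log axis of Hba-a1, Hbb-b1 and Hbb-b2 in the LSK and MEP libraries of each mouse, joined by a line and coloured by genotype, with the value listed at 0 as an open square. Lines rise from LSK to MEP in every WT and Dnmt3a-/- mouse and fall in Bcor-/-Dnmt3a-/- replicate 1, where MEP held 0.583 times the LSK level of Hba-a1.

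The balance of the chains was taken as adult alpha (Hba-a1 and Hba-a2) over adult beta (Hbb-b1 and Hbb-b2). In LSK the ratio was 0.368, 0.473 and 0.463 for WT, 0.483, 0.357 and 0.301 for Dnmt3a-/-, 0.367 and 0.622 for Bcor-/-, and 0.477 and 0.435 for the double knockout. The mean log2 ratio of double knockout LSK differed from that of WT by 0.08 (exact two-sided permutation p = 0.8, where 2 against 3 libraries cannot go below 0.1), and its libraries, at 0.477 and 0.435, lay just above and within the WT range. This was beside log2 changes of 7.41, 7.54 and 6.89 in the single genes, which were 6.45, 6.48 and 5.99 without double knockout replicate 2.

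In MEP the WT ratio was tight, at 0.659, 0.635 and 0.648. It was 0.871, 0.787 and 0.679 in Dnmt3a-/- and 1.11 and 1.14 in Bcor-/-. Both single knockouts lay above every WT library. The difference from WT in log2 was 0.80 for Bcor-/- (higher in 2 of 2 libraries) and 0.26 for Dnmt3a-/- (higher in 3 of 3), each with an exact two-sided permutation p of 0.1, the smallest that 2 or 3 libraries against 3 allow. Adjusted over the 6 comparisons of this kind, both were 0.3. With Hba-a1 set against Hbb-b2 alone, the Bcor-/- ratios of 2.24 and 2.51 still lay above the WT ratios of 1.59, 1.58 and 1.77. For Dnmt3a-/- (2.30, 1.96 and 1.65) they overlapped WT. The double knockout MEP had 0.412 in replicate 1, below every WT library, and 1.84 in replicate 2, where Hbb-b1 is listed at 0. Hba-a1 over Hbb-b2 was 1.5 and 1.84 in these libraries.

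**Figure D3:**
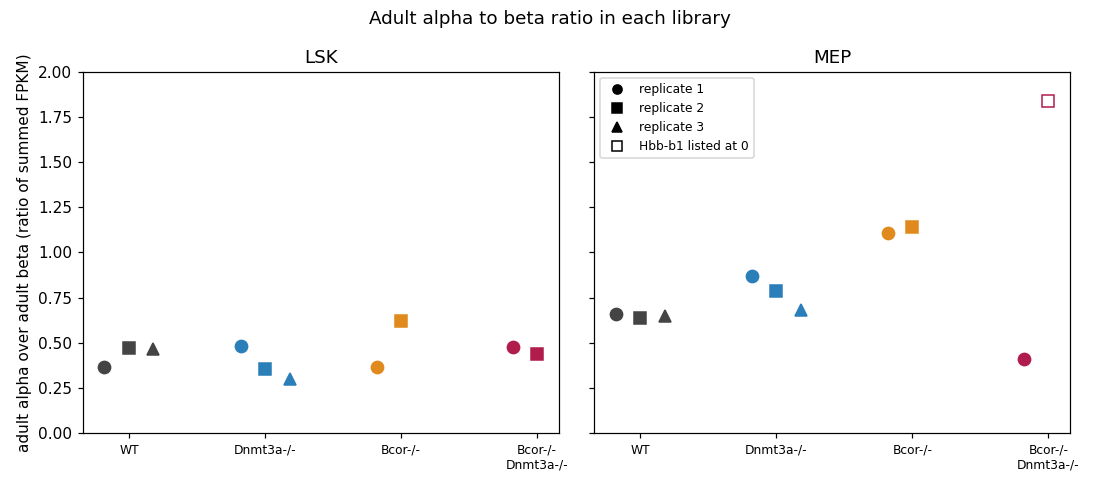
Ratio of adult alpha (Hba-a1 and Hba-a2) to adult beta (Hbb-b1 and Hbb-b2) FPKM in each LSK and MEP library by genotype; marker shapes are replicates and the open square is the library with Hbb-b1 listed at 0. In MEP the Bcor-/- libraries (1.11 and 1.14) lie above the WT libraries (0.635 to 0.659).

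The split between the beta rows varied as well. In LSK Hbb-b1 over Hbb-b2 was 1.41, 2.05 and 3.40 for WT, 2.01, 1.16 and 1.78 for Dnmt3a-/-, 2.26 and 1.87 for Bcor-/-, and 2.91 and 3.66 for the double knockout. In MEP it was 1.41, 1.49 and 1.73 for WT, 1.64, 1.5 and 1.43 for Dnmt3a-/-, 1.01 and 1.20 for Bcor-/-, and 2.63 for double knockout replicate 1. Within MEP, the Bcor-/- libraries had the lowest values above 0. How far this split follows the genes or the division of shared reads was not tested.

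Hba-a2 encodes the same kind of adult alpha chain as Hba-a1, but its row carried almost no signal. It lay between 0.0308 and 0.0535 FPKM in LSK and between 0.0293 and 0.0488 FPKM in MEP. To read such values, the worth of 1 fragment was taken from the steps in low values of genes with a single transcript; it lay between 0.142 and 0.270 FPKM times kilobase over the 20 libraries, a 1.9-fold range of depth. In these terms Hba-a2 amounted to between 0.0851 and 0.101 fragments in every library, also where Hba-a1 went from 23.6 to 151374 fragments. A value below 1 fragment that did not move over such a range is no measurement of Hba-a2, and alpha globin is read here from Hba-a1. Hbb-bs, a further name for an adult beta gene, behaved alike at under 0.034 fragments in 17 libraries, yet was listed at 103 FPKM in LSK of double knockout replicate 2, at 41.7 FPKM in MEP of replicate 1 and at 0 in MEP of replicate 2.

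The embryonic genes stayed near 0. Hbb-y, the embryonic epsilon-like chain, was listed at 0 in all 10 LSK libraries and in 8 of 10 MEP libraries. The exceptions were WT replicate 2 with 0.320 FPKM, about 1.04 fragments, and Bcor-/-Dnmt3a-/- replicate 2 with 4.6 FPKM, about 11.4 fragments. Hbb-bh1, expressed in primitive red cells, was listed at 0 in 9 of 10 LSK libraries and reached 0.511 FPKM, about 1.02 fragments, in Bcor-/-Dnmt3a-/- replicate 2. In MEP it was at 0 in 8 of 10 libraries, at 0.427 FPKM in Dnmt3a-/- replicate 3, and at 4.27 FPKM, about 10.3 fragments, in Bcor-/-Dnmt3a-/- replicate 2. A count of 0 allows up to 3 fragments, which in these libraries is 0.829 to 1.62 FPKM for these genes; this limit covers counting error only. Only MEP of double knockout replicate 2 exceeded it, and there Hba-a1 stood at 55204 FPKM. Double knockout replicate 1 listed both genes at 0 in both populations. Fitted without the filter on low values, neither passed the threshold in MEP against WT, with log2 fold changes of 1.20 ± 0.58 for Hbb-bh1 (adjusted p = 0.17) and 1.11 ± 0.59 for Hbb-y (adjusted p = 0.21).

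**Figure D4:**
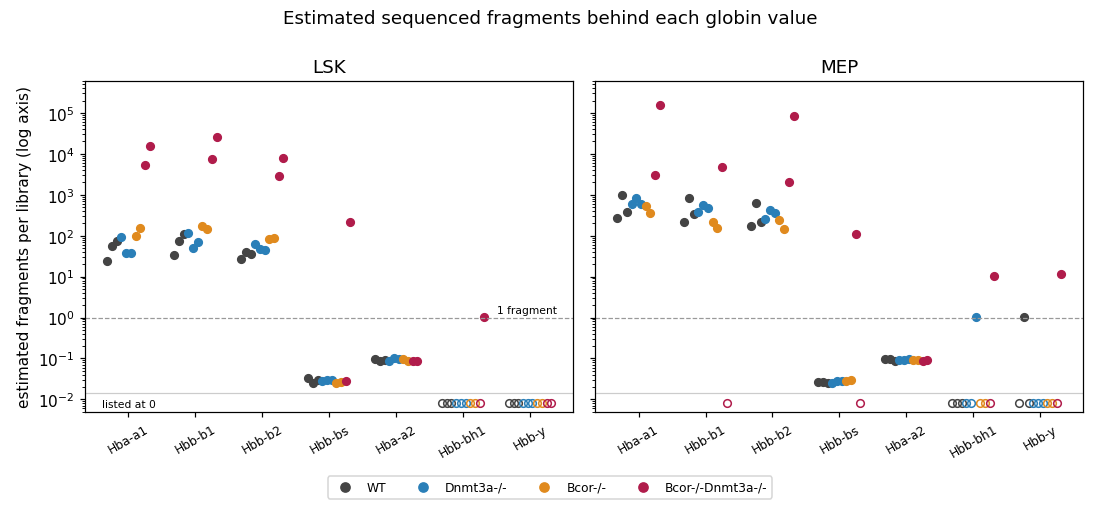
Estimated fragments behind each value of 7 globin rows on a log axis, 1 point per library, coloured by genotype, with values listed at 0 as open circles at the bottom and a dashed line at 1 fragment. Hba-a2 sits near 0.1 fragments in every library, while Hba-a1 reaches 151374 fragments in MEP of Bcor-/-Dnmt3a-/- replicate 2.

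Among the other globins of the tables, Hbq1b, a theta-like gene of the alpha cluster, was also highest in the double knockout. It was listed at 0 in the 8 LSK libraries of the other genotypes and at 6.77 and 14.4 FPKM in Bcor-/-Dnmt3a-/-. In MEP it had 0.513 to 1.49 FPKM in WT and 4.32 and 109 FPKM in the double knockout. It reached the filter through the double knockout libraries alone in both populations, so these levels are a description with no test. Hba-x, the embryonic alpha-like gene, was at 0 in all LSK libraries and in both double knockout MEP libraries, and at most 0.692 FPKM elsewhere.

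The genes whose profiles over the 10 libraries lay nearest to the adult globins were named by the smallest root mean square distance of log2 values set against WT. In LSK these were Alas2, the erythroid enzyme that starts heme synthesis, Slc4a1, the band 3 anion exchanger of the red cell membrane, and Fcmr, the receptor for the Fc part of IgM, which reached the filter only through the double knockout libraries (29 and 258 FPKM). The order was the same for Hba-a1 (distances of 0.66, 0.69 and 1.03) and Hbb-b2 (0.39, 0.48 and 0.68). In MEP the nearest to Hbb-b2 were Alas2 (0.49), Slc4a1 (0.50) and Rsad2 (0.69), an interferon-induced antiviral gene, and the nearest to Hba-a1 were Tmcc2 (0.69), Alas2 (0.71) and Rsad2 (0.74). These distances are descriptions over 10 libraries and rest largely on the double knockout pair.

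The LSK level of Alas2 was 0.541, 1.57 and 2.01 FPKM for WT and 120 and 469 FPKM for the double knockout. In MEP it had 4.45, 15.2 and 6.90 FPKM in WT, 1.91 and 1.49 FPKM in Bcor-/-, and 88.3 and 4392 FPKM in the double knockout. The Bcor-/- MEP libraries were thus below every WT library for Alas2, as they were for Hbb-b1. Slc4a1 in the same libraries had 11.7, 32.7 and 13.4 FPKM in WT and 7.78 and 2.72 FPKM in Bcor-/-.

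The factors known to act at the globin clusters were read next. Of 23 transcription factors and cofactors, 8 were called higher and 3 lower in double knockout LSK, where 15.0% and 13.3% of all genes were; the list's median was 0.13 (log2) beside 0.02 for all genes. Klf1, the activator of adult beta globin, went from 1.96, 4.96 and 6.05 FPKM to 52.0 and 35.3 FPKM (3.14 ± 0.42, adjusted p = 0.00078). Gata1, the master erythroid factor, went from 7.83, 12.1 and 12.9 FPKM to 44.1 and 43.5 FPKM (1.94 ± 0.27, adjusted p = 0.00092). The others called higher were E2f2 (2.78), Klf3 (1.51), Zfpm1 (1.08), Usf1 (0.96) and 2 with changes under that. Those called lower were Lmo2 (-1.89) and Nfe2 (-1.41), both parts of globin enhancer complexes, and Stat5a (-0.75). Bcor-/- LSK alone had 16.1 and 35.4 FPKM of Klf1 and 18 and 34.3 FPKM of Gata1, above every WT library, at Hba-a1 levels of 33.1 and 43.4 FPKM.

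In MEP the same list gave 4 higher and 3 lower, near the 18.5% and 12.4% of all genes, with a median of 0.27 beside 0.02. E2f2, which acts in terminal erythroid divisions, had 49.1 and 515 FPKM against 15.3 to 33.5 FPKM in WT (2.79), and Hbp1 37 and 98.3 FPKM against 25.2 to 27.5 FPKM (1.19). Klf3 (0.95) and Usf1 (0.68) passed the unadjusted threshold (adjusted p = 0.091 and 0.082), each through 1 library in the main: Klf3 had 41.5 FPKM in replicate 1, within the WT range of 29.9 to 42.5 FPKM, and 130 FPKM in replicate 2, while Usf1 had 49.4 and 22.7 FPKM against 20.3 to 20.8 FPKM. Stat5a (-0.99), Ldb1 (-0.82), the looping cofactor of the beta locus, and Nfe2l2 (-0.59) fell. Gata1 and Klf1 were split between the double knockout libraries: Gata1 had 71.4 FPKM in replicate 1 and 239 FPKM in replicate 2 against 170 to 225 FPKM in WT, and Klf1 70.9 and 219 FPKM against 144 to 192 FPKM. Hence replicate 1 had Gata1 and Klf1 below every WT library together with an Hba-a1 level above every WT library.

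Of 23 genes known to silence embryonic globins, 2 were called higher and 3 lower in both populations, with medians of -0.15 in LSK and -0.24 in MEP. These counts are at or below the shares of all genes (15.0% higher and 13.3% lower in LSK, 18.5% and 12.4% in MEP) or close to them. In LSK Mbd2 (1.12) and Zbtb7a (0.62) rose, and Nr2c1 (-1.57), Nfix (-0.77) and Hdac2 (-0.64) fell. In MEP Nfia (-1.58), Nr2c1 (-1.08) and Prmt5 (-0.74) fell, and Nr2c2 (0.70) rose. Sox6, which helps to shut off Hbb-y, was called higher at 2.16 ± 0.77 (adjusted p = 0.059) and came from replicate 2, with 76.5 FPKM beside 6.37 FPKM in replicate 1 and 3.84 to 5.13 FPKM in WT. That library was also the one with 4.6 FPKM of Hbb-y. Among 7 factors of the fetal state, 5 passed the filter in LSK (Igf2bp3 only through double knockout replicate 1), where Hmga2 fell (-2.42) and Arid3a was called higher (1.10, adjusted p = 0.08), and 1 passed in MEP, Arid3a (0.62, adjusted p = 0.097).

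Genes that watch over free chains and heme were called in part. Of 17 such genes 4 were higher and 1 lower in LSK (median 0.25), and 6 higher and 2 lower in MEP (median 0.37), where the shares of all genes were 15.0% and 13.3% in LSK and 18.5% and 12.4% in MEP. Ube2o, the ubiquitin ligase that clears unassembled globin in maturing red cells, went from 6.65, 6.41 and 8.33 FPKM to 24.5 and 52.8 FPKM in LSK (2.2, adjusted p = 0.00066). In MEP it went from 7.23 to 9.94 FPKM in WT to 16.6 and 419 FPKM (3.14, adjusted p = 0.045). Eif2ak1, the heme-regulated kinase that restrains globin translation, rose by 1.17 in LSK (adjusted p = 0.00039), and in MEP had 57.4 and 411 FPKM against 50.5 to 62.6 FPKM in WT (1.46, adjusted p = 0.11). Hmox1, which breaks heme down, rose in MEP to 78.3 and 9.85 FPKM from 1.32 to 1.62 FPKM (3.59, adjusted p = 0.0061), and was highest in the double knockout replicate with the lower globin level. Hmox1 also stands on the macrophage marker list, whose sum in these libraries was 800 and 36.3 FPKM against 7.41 to 11.7 FPKM in WT, and the part of such cells was not tested. Blvrb (2.97) and Trib3 (1.24) rose in LSK and Bach1 (0.97) in MEP, where Btg2 was called as well (1.28, adjusted p = 0.07). Trib3, the other of the 6 called higher in MEP, had 6.27 and 23.1 FPKM in the double knockout and reached the filter only through these libraries. Hsp90ab1 fell in both populations (-0.63 and -0.69) and Hspa9 in MEP (-0.63).

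Of 13 antioxidant enzymes of red cells, 3 rose in LSK (Glrx5 by 1.16, Prdx2 by 1.10 and Cat by 0.96) and none fell, where 15.0% of all genes were called higher. In MEP, where 18.5% were called higher and 12.4% lower, Cat rose (1.85), Gsr was called higher (0.84, adjusted p = 0.067), and Sod1 (-0.68) and Sod2 (-0.62) fell. Of 17 heme synthesis genes, 13 rose in LSK and none fell, with a median of 1.48, and 2 rose in MEP, under the share of all genes, Alas2 (6.14, adjusted p = 0.0087) and Slc25a37 (3.85, adjusted p = 0.015), the mitochondrial iron importer. Replicate 2 again set their size, with 1381 FPKM of Slc25a37 beside 75.3 FPKM in replicate 1 and 20.1 to 24.3 FPKM in WT. In Bcor-/- LSK, 9 of the 17 were called higher with a median of 0.60, where 7.2% of all genes were called higher and no globin was.

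**Figure D5:**
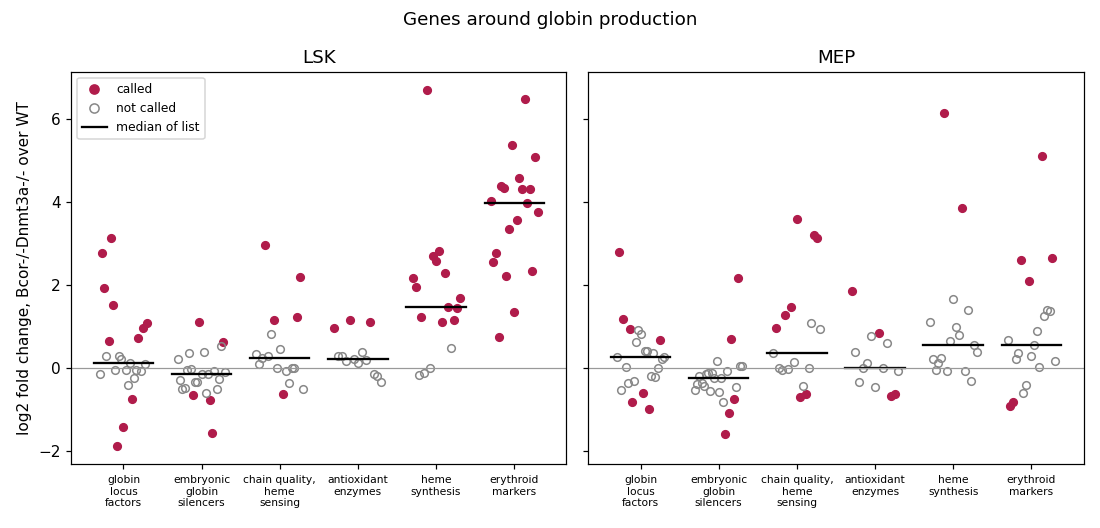
Log2 fold change of Bcor-/-Dnmt3a-/- over WT for each tested gene of 6 lists in LSK and MEP; filled points were called, open points were not, and black lines are list medians. The medians of heme synthesis are 1.48 in LSK and 0.55 in MEP.

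Markers of the cell types that the sorted populations could hold differed between the genotypes as well. All 19 erythroid markers were called higher in double knockout LSK, with summed levels of 2431 and 2567 FPKM against 472 to 580 FPKM in WT, while 8 of 10 stem and multipotent markers fell, to sums of 183 and 381 FPKM from 1163 to 1371 FPKM, where 15.0% of all genes were called higher and 13.3% lower. Bcor-/- LSK stood between, at 928 and 1498 FPKM for erythroid and 884 and 600 FPKM for stem markers. Granulocyte markers in LSK did not follow this order, with sums of 16174 and 23084 FPKM in Bcor-/-, 8297 and 8537 FPKM in the double knockout and 3299 to 13093 FPKM in WT. Macrophage markers in double knockout LSK summed to 1529 and 124 FPKM (69.1 to 404 FPKM in WT) and megakaryocyte markers to 17.5 and 51.8 FPKM (101 to 121 FPKM). In double knockout LSK, B cell markers summed to 2320 and 1072 FPKM (38.7 to 81.0 FPKM in WT) and T cell markers to 25.5 and 119 FPKM (0.705 to 1.85 FPKM). Kit, part of the LSK gate, had 47.7 and 19.4 FPKM there against 148 to 174 FPKM in WT (-2.37, limma, adjusted p = 0.00049). Ly6a, also among the stem markers, was not called, at 63.5 and 220 FPKM against 59.8 to 70.7 FPKM. In MEP erythroid markers summed to 3761 FPKM in double knockout replicate 1 and 18013 FPKM in replicate 2, against 6060 to 8724 FPKM in WT. Granulocyte markers in these libraries summed to 6861 and 15954 FPKM against 315 to 745 FPKM. Megakaryocyte markers summed to 24.7 and 77.1 FPKM (97.3 to 351 FPKM in WT) and macrophage markers to 800 and 36.3 FPKM (7.41 to 11.7 FPKM). B cell markers summed to 1810 and 114 FPKM there (20.2 to 108 FPKM in WT), T cell markers to 22 and 8.24 FPKM (1.08 to 1.51 FPKM) and stem markers, within the WT range of 97.3 to 203 FPKM in replicate 1, to 58.3 FPKM in replicate 2. Erythroid and granulocyte markers were thus higher in the replicate with the higher globin level, and macrophage and B cell markers in the other. In MEP the granulocyte, macrophage, B cell and T cell sums stood above every other genotype in both double knockout libraries. The erythroid sum did so there in replicate 2 alone. In LSK the erythroid sums stood above every other genotype in both libraries and the granulocyte sums did not. No marker of any list was at 0 in all libraries of a group. The paper defines both populations as lineage-negative (Lin-) and Kit+, a gate that leaves out cells bearing mature lineage markers. The part of these cell types in the globin levels was not tested.

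The mRNA of the deleted genes did not separate all genotypes. Bcor in LSK had 22.4 and 23.2 FPKM in Bcor-/- and 24 and 37.4 FPKM in the double knockout, against 29.5 to 32.4 FPKM in WT. In MEP it had 19.5 and 22.4 FPKM in Bcor-/- and 19.6 and 26.7 FPKM in the double knockout, against 21.3 to 26.9 FPKM in WT. Dnmt3a in LSK had 10.4 and 10.9 FPKM in the double knockout and 16.9, 14 and 11.3 FPKM in Dnmt3a-/-, against 16.1 to 19.8 FPKM in WT. In MEP double knockout replicate 1 had 6.85 FPKM of Dnmt3a, above every WT library (5.49 to 6.64 FPKM), and replicate 2 had 3.44 FPKM. The Dnmt3a-/- MEP libraries had 5.4, 2.97 and 2.56 FPKM of it. The paper reports Bcor mRNA as undetectable by PCR in Bcor-/- LSK, and a complete loss of Dnmt3a in leukemic double mutants only. Values over whole genes include the exons that the deletion leaves, and how they relate to these reports was not tested. Depth as read from the fragment steps did not set the double knockout apart. With another scaling, the log2 median over all genes went from 0.02 to as low as -0.17 in double knockout MEP and -0.12 in LSK, and turned the counts of called genes from 2019 higher and 1357 lower to 1461 and 2277 (quantile normalization, MEP) and from 1793 and 1590 to 1416 and 2106 (globins removed and libraries rescaled, LSK). The adult globin changes of the double knockout were many times that shift. Rescaling without globins also turned the counts of Bcor-/- LSK, from 860 higher and 721 lower to 550 and 1185.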

How the data were processed

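RNA of sorted LSK and MEP cells was sequenced as polyA libraries. Per the labels, the submitters' processing notes name STAR 2.5.1b, SAMtools 1.9, Cufflinks 2.2.1 and the build mm9. The authors deposited FPKM values per gene, 1 table per population, which carry no counts; how reads shared by paralogs were divided is not given in the sources used here. From these, log2(FPKM + 1) values were tested, for genes whose mean reached 1 FPKM, with limma 3.58.1 (R 4.3.3, trended variance), all 10 libraries of a population in 1 fit, and p-values were adjusted by Benjamini-Hochberg over all genes tested. Alpha to beta ratios were compared by exact two-sided permutation. Replicates are separate mice, apart from Bcor-/- replicate 1, whose label names 2, and each genotype has 2 or 3 of them. In the main fits the limma p-values rest on a spread between replicates that is pooled over all 4 genotypes. That spread is also drawn towards a trend over all genes.

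Fragments were estimated from the steps in low values of single-transcript genes of 900 to 3000 nt, with a factor of 1.23 for short transcripts, using GENCODE transcript lengths (those of Hbb-bs and Hbb-bt for Hbb-b1 and Hbb-b2). The reference here is of a later build than the tables, so it gave only sequences and these transcript lengths. The fit was tested on simulated data, and the outcome of that is not given here.

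The genes described, the gene lists and the tests were chosen with earlier results of these data known. Named genes were the members, up to 8 called genes of each list by the size of the change, every gene behind a count of 5 or fewer, and the 3 genes nearest in profile; Hba-x, Hbb-bs, and Gata1 and Klf1 in Bcor-/- LSK and in MEP were named after their values were seen. Alternatives were another pseudocount (0.1), filter, scaling, variance model, threshold and sample set, summed paralogs, listed zeros set to missing, and each library left out. One gene of the list is not reported here.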

Additional observations from a re-analysis of the deposited data

Results flagged for a closer look

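The effect of Bcor-/-Dnmt3a-/- on Hbb-b1 differed between LSK and MEP by the test of the per-mouse difference, with a value of 9.26 on the log2 scale (limma, adjusted p = 0.045, 2 mutant and 3 WT mice). It contained the MEP library of replicate 2, in which Hbb-b1 is listed at 0 while Hbb-b2 is listed at 30050 FPKM. With that entry set to missing the value was 2.77, and with Hbb-b1 and Hbb-b2 summed it was 2.14. With the listed 0 missing the value rests on replicate 1 alone, in which MEP held 0.656 times the LSK level of Hbb-b1; the summed value uses both mice.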

How the results depend on the processing

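The calls of all 3 adult globins in double knockout LSK against WT, Bcor-/- and Dnmt3a-/- were kept under every alternative run. With each library left out in turn the log2 fold change against WT ranged from 6.45 to 8.37 for Hba-a1, 6.48 to 8.60 for Hbb-b1 and 5.99 to 7.79 for Hbb-b2.

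Hbb-b1 in double knockout MEP changed direction with paralogs summed, with the listed 0 set to missing and as a ratio of mean FPKM. Against WT it was 5.23 with paralogs summed, 3.71 with the 0 set to missing and 2.57 as a ratio of mean FPKM; against Bcor-/- these were 6.41, 5.09 and 4.08, and against Dnmt3a-/- 4.95, 3.43 and 2.43. Leaving out single libraries gave -7.15 to 3.71, -5.77 to 5.09 and -7.42 to 3.43 in these comparisons, and 2 to 3 globins called in each. The fit of compared genotypes alone called 1 globin against Bcor-/-.

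The single knockouts were less settled. For Bcor-/- LSK 1 globin was called in the fit of compared genotypes and 1 with a variance per genotype (0 to 1 with libraries left out). For Bcor-/- MEP 1 was called in the fit of compared genotypes and 1 with the 0 missing (0 to 1 with libraries left out), and Hba-a1 ranged from -0.72 to 0.07. In Dnmt3a-/- LSK, Hbb-b1 was 0.05 with paralogs summed, and leaving out libraries gave -0.69 to 0.23 for Hba-a1 and -0.62 to 0.36 for Hbb-b1.

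For the LSK minus MEP difference of the double knockout, 3 globins were called after quantile normalization and 2 with paralogs summed (1 to 3 with mice left out); Hba-a1 ranged from -0.15 to 3.65 and Hbb-b2 from -0.56 to 3.06. For Bcor-/- the numbers called were 1 after quantile normalization, 2 in the fit of compared genotypes, 1 with a variance per genotype, 2 with paralogs summed and 1 with the 0 missing (0 to 2 with mice left out). The alpha to beta difference of double knockout MEP was -0.65 without the library holding the listed 0 (-0.65 to 1.51 with libraries left out), that of double knockout LSK ranged from -0.04 to 0.14 and that of Bcor-/- LSK from -0.23 to 0.53. The cause of these changes was not tested beyond the listed 0.

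Replicate numbers did not pair the LSK samples across genotypes (correlations of same-numbered libraries from -0.06 to 0.09). In MEP the correlations went from -0.19 to 0.34. There all same-numbered pairs among the mutant genotypes had 0.12 to 0.21. The 2 pairs of Bcor-/- with the double knockout (both 0.14) are the same value by construction. With 2 libraries in a group, the deviations from their mean mirror each other. Pairing by number was not settled. With the replicate number as a block the value for Hba-a1 was 7.48 in double knockout LSK and 5.54 in MEP, and no globin call changed. Over all genes against WT, the 3383 calls of double knockout LSK, 3376 of double knockout MEP, 1581 of Bcor-/- LSK and 302 of Bcor-/- MEP became 1973, 1727, 516 and 118 at a fold change above 2. A variance per genotype gave 1980 in double knockout MEP and 482 in Bcor-/- MEP, and a minimum of 5 FPKM gave 166 in the latter. Without replicate 2 of Bcor-/- LSK 882 genes were called there, and without replicate 1 of Bcor-/- MEP 199. In Dnmt3a-/- LSK the 53 calls became 34 without Dnmt3a-/- replicate 2 and 110 without double knockout replicate 2, with a like rise without its replicate 1. In Dnmt3a-/- MEP the 45 calls became 121 without Dnmt3a-/- replicate 1, with a like rise without WT replicate 2, and 86 and 83 without double knockout replicates 1 and 2. Calls by adjusted p were 690 in Bcor-/- LSK, 7 in Bcor-/- MEP, 27 for the LSK minus MEP difference of Bcor-/-, and 0 in Dnmt3a-/- LSK and MEP. The 53 calls of Dnmt3a-/- LSK became 121 with a variance per genotype, 105 in the fit of compared genotypes and 19 at a fold change above 2. The 45 of Dnmt3a-/- MEP became 78, 89 and 14 under these settings. WT LSK values rest on 23.6 to 110 estimated fragments per adult globin, so small differences there are not resolved.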
